A study of Homo sapiens with 72 samples.

Results

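Untreated ectocervical cells (Ecto) were compared with untreated vaginal cells (VK2) to ask how the epithelial lines of neighbouring sites differed before any polyamine or bacterium was added. The comparison took 6 of the 72 RNA-seq libraries of the series: 3 Ecto NT+noGV libraries and 3 VK2 NT+noGV libraries, picked by their labels. Ecto was the line Ect/E6E7 and VK2 the line VK2/E6E7, both human epithelial cells immortalised with the E6 and E7 genes of a papillomavirus and grown in keratinocyte serum-free medium. NT means that no putrescine (PUT), spermidine (SPD) or spermine (SPM) was given in the 4 h pretreatment, and noGV that no Gardnerella vaginalis (GV) was added for the following 24 h. The endocervical line End1/E6E7 (Endo), also NT+noGV, and the 7 other conditions in which both lines were sequenced were used to show where Ecto and VK2 differed, and their libraries entered the same fit, so they also set the filter and the spread behind each p-value. Each tissue was represented by 1 immortalised line, so tissue of origin, donor and line cannot be told apart, and the labels do not say whether replicates came from separate cultures. The p-values therefore measure the spread between these libraries, which may be technical.

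The ectocervix and the vagina are both lined by a stratified squamous epithelium that does not fully cornify. In such tissue basal keratinocytes hold on to a basement membrane through integrins and laminins, make the keratins KRT5 and KRT14, and depend on the transcription factor TP63. As they move upward they switch on envelope precursors such as involucrin, assemble desmosomes, and secrete kallikreins, the serine proteases that later loosen the surface cells. The endocervix is lined instead by a simple columnar epithelium, which typically carries KRT7, KRT8 and KRT18.

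Every library held between 25939821 and 42767996 estimated counts. Levels are given as CPM, counts scaled to the effective library size of each library. Of 21195 genes tested with edgeR, 5403 were called, meaning a Benjamini-Hochberg adjusted p under 0.05 and at least a 2-fold difference, or 25.5% of the genes tested. Among them 2640 were higher in Ecto (12.5%) and 2763 were lower (13%). Protein-coding genes, which make up most of the lists below, were less evenly divided, with 1536 higher and 2084 lower of 15318. The median log2 fold change of all tested genes, Ecto over VK2, was 0.01, and the median standard error was 0.11 over all tested genes and 0.06 for genes of at least 10 CPM in either line. Libraries of the same line lay so close together that the 3 Ecto and the 3 VK2 values did not overlap for 68.7% of all tested genes, so a lack of overlap alone says little here. Mitochondrial genes took 3.66% to 3.77% of the counts in Ecto and 4.79% to 5.0% in VK2.

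Both lines carried the core squamous programme. All 16 listed squamous markers were detected, and TP63, the master regulator of stratified epithelium, averaged 345 ± 14 CPM in Ecto and 324 ± 5.83 CPM in VK2 (SD, n = 3 each). Its log2 fold change was 0.09 ± 0.06 (SE) with an edgeR adjusted p of 0.201. The laminin chain LAMB3 stood at 1821 ± 56.1 CPM in Ecto and 1821 ± 5.41 CPM in VK2 (SD, n = 3 each). SFN, the 14-3-3 protein of keratinocytes, and S100A2, a calcium-binding protein of basal cells, differed by log2 fold changes of -0.18 and -0.51, short of the 2-fold limit. The other 12 squamous markers were nevertheless called, all of them lower in Ecto, and the list summed to between 13190 and 13680 CPM in the Ecto libraries and between 46280 and 47730 CPM in the VK2 libraries. Markers of other cell types were low. Of 12 fibroblast markers 9 were tested, 1 higher and 5 lower in Ecto, and the list summed to between 36.8 and 39.5 CPM in Ecto and between 52.0 and 56.9 CPM in VK2. Of 14 leukocyte markers 6 were tested, 2 higher and 1 lower, and the list summed to between 59.6 and 60.7 CPM in Ecto and between 82.9 and 89.7 CPM in VK2, most of it CD68, a lysosomal protein that many cells make. Of 10 melanocyte and Schwann markers 5 were tested, 2 higher and 1 lower in Ecto. That list summed to between 21.4 and 23.3 CPM in Ecto and between 6.09 and 7.97 CPM in VK2. Of 10 endothelial markers 9 were tested, 1 higher and 4 lower. They summed to between 2.64 and 2.90 CPM in Ecto and between 2.90 and 3.88 CPM in VK2. PTPRC, CD3D, CD3E, TYROBP, COL3A1, POSTN, MLANA and SOX10 were not among the genes tested, because their counts were too low, and COL1A2 had no count in Ecto. What part other cells had in the results was not tested, and in bulk RNA fewer cells of a type cannot be told apart from less RNA per cell.

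The keratins set the lines apart. Of the 17 squamous keratins tested, 12 were lower in Ecto, 1 was higher and 4 were not called, with a median log2 fold change of -2.09 beside 0.01 for all genes. KRT14, the type I keratin of basal cells, had 100.4, 90.4 and 97.8 CPM in the Ecto libraries, against 7387, 7128 and 7628 CPM in the VK2 libraries. Every Ecto value lay far below every VK2 value, a log2 fold change of -6.26 ± 0.08 (SE, edgeR adjusted p = 4.84e-58). Its partner KRT5 had 4527, 4469 and 4718 CPM in Ecto, against 18280, 18180 and 18610 CPM in VK2, a log2 fold change of -2.01 ± 0.04 (SE). The partners thus differed unequally between the lines: KRT14 fell by 6.26 on the log2 scale and KRT5 fell by 2.01. On that scale Endo was nearer VK2 for KRT5, at 12860 CPM, and nearer Ecto for KRT14, at 414 CPM. It was nearer VK2 for 10 of the called squamous keratins and for 11 of the 12 called squamous markers. Endo was nearer VK2 for 59.1% of all called genes.

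Keratins of wounded or fast-growing squamous epithelium followed the same direction. KRT6A averaged 2316 ± 52.7 CPM in Ecto and 9875 ± 335 CPM in VK2, and KRT16 averaged 17 ± 1.61 CPM in Ecto and 296 ± 8.07 CPM in VK2 (SD, n = 3 each). KRT6B, KRT6C and KRT17 were lower by log2 fold changes of -3.97, -2.03 and -1.58. KRT6A, KRT6B and KRT6C, like KRT14, KRT16 and KRT17, are near-identical copies of each other in places, so the division of reads among them is uncertain. KRT13 and KRT4, the pair of the upper layers in non-cornifying epithelium, were low in both lines: KRT13 averaged 0.489 CPM in Ecto and 4.98 CPM in VK2, and KRT4 had a single count over the 3 Ecto libraries and 0.900 CPM in VK2. KRT80 was the 1 squamous keratin higher in Ecto, at a log2 fold change of 1.31. KRT24, counted among the 4 not called, had no count in either line.

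Simple epithelial keratins ran the other way, with 5 of 6 higher in Ecto, none lower, and a median log2 fold change of 1.75. KRT8 had 1849, 1930 and 1971 CPM in Ecto, against 434.6, 457 and 463 CPM in VK2, and KRT18, the type I keratin with which it pairs, averaged 1408 ± 49.9 CPM in Ecto and 526 ± 8.10 CPM in VK2 (SD, n = 3 each). The libraries of the lines did not overlap for either gene, and the log2 fold changes were 2.09 ± 0.06 and 1.42 ± 0.05 (SE). VIM, the intermediate filament of mesenchymal and many cultured cells, was 759 ± 12.3 CPM in Ecto and 177 ± 7.15 CPM in VK2 (SD, n = 3 each). The endocervical line was below both for this pair, at 119 CPM for KRT8 and 208 CPM for KRT18. KRT7 averaged 13.9 CPM in Ecto and 2.00 CPM in VK2, and 1423 CPM in Endo. The wider list of columnar endocervical markers, to which KRT7, KRT8 and KRT18 belong, was split. Of its 11 tested genes 4 were higher in Ecto, 5 were lower and 2 were not called, with a median log2 fold change of -0.01. FOXA2, given below, was among the lower ones.

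**Figure D1:**
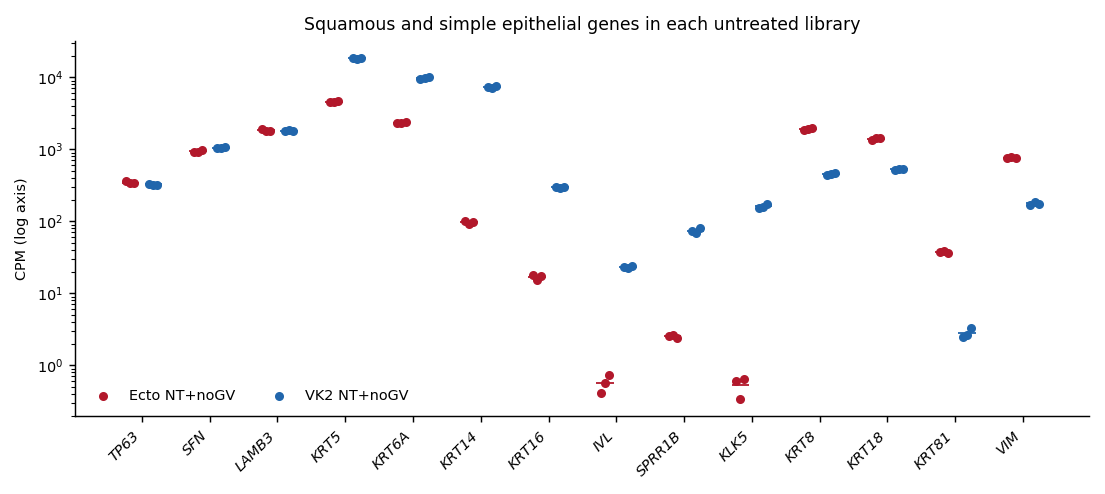
Levels of 14 epithelial genes in each untreated library, in CPM on a log axis, with the 3 Ecto NT+noGV libraries as red points left of the 3 VK2 NT+noGV libraries in blue, and a short line at each mean. TP63, SFN and LAMB3 sit at like heights in both lines, KRT14 lies near 96.2 CPM in Ecto and 7381 CPM in VK2, and KRT8, KRT18, KRT81 and VIM are higher in Ecto.

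Genes of late squamous differentiation were mostly lower in Ecto. Of 27 cornified envelope precursors and their crosslinkers tested, 21 were lower in Ecto, 2 were higher and 4 were not called, with a median log2 fold change of -3.53 (-3.14 with genes at 0 in a line set to their bound). IVL, involucrin, had 0.415, 0.567 and 0.740 CPM in Ecto, against 23.4, 22.1 and 24.0 CPM in VK2. No Ecto library came near a VK2 library, and the log2 fold change was -5.32 ± 0.12 (SE, edgeR adjusted p = 3.87e-46). SPRR1B, a small proline-rich precursor, averaged 2.55 ± 0.125 CPM in Ecto and 74.2 ± 6.41 CPM in VK2, and TGM1, the transglutaminase that crosslinks the envelope, averaged 3.46 ± 0.214 CPM in Ecto and 39.8 ± 1.11 CPM in VK2 (SD, n = 3 each). Endo stood with VK2 for IVL and SPRR1B, at 23.8 and 65.2 CPM. The plakins of the envelope differed less: the log2 fold change was -1.76 for PPL, periplakin, and -0.07 for EVPL, envoplakin, which was not called. The 2 higher genes were TGM2, a broadly expressed transglutaminase, at 36.9 ± 1.54 CPM in Ecto and 1.78 ± 0.388 CPM in VK2 (SD, n = 3 each), and CASP14, a caspase of cornifying cells, at a log2 fold change of 2.68.

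All 11 kallikreins and kallikrein inhibitors tested were lower in Ecto, with a median log2 fold change of -5.70 (-4.08 with bounds). Summed over the list, the level lay between 1.41 and 1.64 CPM in the Ecto libraries and between 232 and 260 CPM in the VK2 libraries. KLK5, which starts the activation of the others in skin, had 0.610, 0.340 and 0.647 CPM in Ecto, against 154, 160.3 and 176 CPM in VK2. Its log2 fold change was -8.18 ± 0.11 (SE, edgeR adjusted p = 1.07e-59), among the 10 smallest adjusted p-values of the comparison, and KLK10 followed at -7.88. Endo lay between, at 4.45 CPM for KLK5 and 19.8 CPM for KLK10. SPINK5, the inhibitor that restrains these proteases, was lower too, at a log2 fold change of -4.08. KLK12, KLK13 and SPINK6 had no count in Ecto, and were at least 10.4-fold, 5.64-fold and 9.64-fold lower there, against a floor of 3 counts over the group. Of the 6 genes of the list above 1 CPM, 5 lay in a stretch of chromosome 19 whose genes were lower in Ecto as a whole, described further on.

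Called desmosome, S100 and protocadherin genes were mostly lower in Ecto. Among 14 desmosome proteins 7 were lower in Ecto and none higher, with a median log2 fold change of -1.18 (-1.06 with bounds). DSG1, the desmoglein of upper layers, had 1 count over the Ecto libraries and averaged 2.56 CPM in VK2, whereas the basal DSG3 differed by a log2 fold change of -1.43 and the plaque protein PKP1 by -1.80. DSP, desmoplakin, which every desmosome needs, was at -0.49 and not called. Of 14 S100 proteins 9 were lower, none higher, with a median of -1.81, and these included the antimicrobial pair S100A8 and S100A9 at -3.09 and -1.42. Among 17 protocadherins, cell adhesion molecules best known from neurons, 12 were lower and 1 was higher. That 1 was PCDH7, at 134 ± 7.21 CPM in Ecto and 13.2 ± 0.210 CPM in VK2 (SD, n = 3 each). Several clustered protocadherins share their last exons, so their separate values are uncertain. Tight junction genes were split, with 5 of 22 higher, 3 lower and 14 not called, and a median of 0.36. The share called was 36.4%, beside 25.5% of all tested genes. CLDN1, the claudin of the epidermal barrier, averaged 62.2 ± 4.45 CPM in Ecto and 11.8 ± 0.806 CPM in VK2, and CLDN11 averaged 21.8 ± 1.39 CPM in Ecto and 0.225 ± 0.0601 CPM in VK2 (SD, n = 3 each).

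The basement membrane and matrix list held 52 tested genes, of which 26 were lower in Ecto and 6 higher, with a median log2 fold change of -0.98. SPARC, a secreted collagen-binding protein, had 0.122, 0.113 and 0.0925 CPM in Ecto, against 176, 195 and 198 CPM in VK2. That was a log2 fold change of -10.72 ± 0.13 (SE, edgeR adjusted p = 1.42e-62), and Endo resembled Ecto with 0.0334 CPM. COL5A1, a fibrillar collagen chain, showed the same order, with 0.160 CPM in Ecto, 92.5 CPM in VK2 and no count in Endo. The abundant genes of the hemidesmosome and its anchoring laminin were lower as well: LAMA3, COL17A1, ITGA6 and ITGB4 had log2 fold changes of -2.21, -2.0, -1.81 and -1.34, while LAMB3, a laminin chain that joins LAMA3, did not differ detectably. Endo was nearer VK2 for LAMA3, COL17A1 and ITGA6, at 1356, 1752 and 2956 CPM. Of the 26 lower and 6 higher genes of the list, Endo was nearer VK2 for 13. FN1, fibronectin, averaged 3756 ± 32.8 CPM in Ecto and 10100 ± 525 CPM in VK2 (SD, n = 3 each). TIMP3, an inhibitor of matrix proteases, had the smallest adjusted p of all genes (edgeR, 2.95e-69), with 7.77 ± 0.739 CPM in Ecto and 530.4 ± 8.85 CPM in VK2 (SD, n = 3 each). Among the 6 higher genes were CCN1 and CCN2, matricellular proteins widely used as readouts of the coactivator YAP1. CCN1 averaged 431 ± 5.17 CPM in Ecto and 81.7 ± 2.91 CPM in VK2, and CCN2 averaged 56.5 ± 2.72 CPM in Ecto and 9.79 ± 0.519 CPM in VK2 (SD, n = 3 each).

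Notch signalling, by which touching cells steer each other into differentiation, had 11 of 26 members lower in Ecto and 4 higher (median -0.75). Among receptors NOTCH3 averaged 10.6 ± 0.695 CPM in Ecto and 106.9 ± 1.54 CPM in VK2 (SD, n = 3 each), while NOTCH2 did not differ detectably, at a log2 fold change of -0.04. The ligand JAG1 averaged 72.4 ± 3.82 CPM in Ecto and 276 ± 5.02 CPM in VK2 (SD, n = 3 each). The HES and HEY family genes HES5, HEYL, HEY1, HES2 and HES1 were lower, at -4.28, -5.40, -1.90, -1.28 and -1.01. In contrast, HES4 and the feedback inhibitor NRARP were higher, at 1.16 and 2.15. HES1 and HES4 lay near the 2-fold limit: HES1 lost its call without Ecto replicate 3 (-0.95) or VK2 replicate 1 (-0.96), and HES4 without VK2 replicate 3 (0.99), beside other settings given at the end. The coactivator MAML2 was higher at 2.65, and lies in the chromosome 11 block described below. Of the 21 Notch genes of at least 1 CPM, 3 lay in stretches whose genes were shifted as a whole, also described below. Among these 3, 1 was called higher and 2 were called lower.

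**Figure D2:**
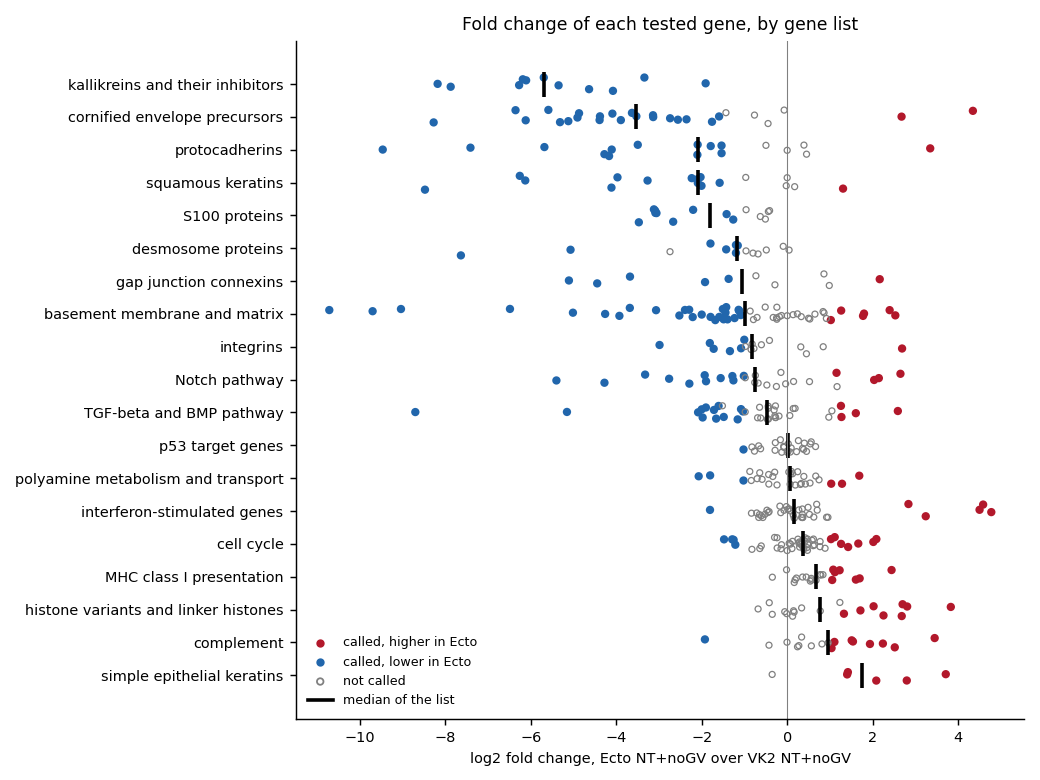
Log2 fold change of every tested gene in 19 gene lists, Ecto NT+noGV over VK2 NT+noGV, with called genes filled in red (higher in Ecto) or blue (lower in Ecto), others open, and a bar at each list's median. Medians run between -5.70 for the kallikreins and 1.75 for the simple epithelial keratins, with the p53 targets at 0.02.

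Inflammatory genes were split. Of 30 cytokines and growth factors 8 were higher in Ecto and 9 lower, and of 18 chemokines 6 were higher and 3 lower. IL32, an intracellular inducer of other cytokines, had 82.5, 78.7 and 81.9 CPM in Ecto, against 0.397, 0.586 and 0.568 CPM in VK2, a log2 fold change of 7.30 ± 0.12 (SE, edgeR adjusted p = 7.84e-54). IL6 averaged 18.2 ± 0.577 CPM in Ecto and 0.408 ± 0.173 CPM in VK2, and the chemokine CCL20 averaged 10.8 ± 1.25 CPM in Ecto and 0.634 ± 0.115 CPM in VK2 (SD, n = 3 each). The neutrophil attractant CXCL8 was higher at 1.65 ± 0.15 (SE). The interleukin-1 family went the other way: IL1B, IL18, IL36G, IL36RN and the receptor antagonist IL1RN had log2 fold changes of -1.47, -1.83, -2.58, -2.29 and -2.68. PYCARD, the adaptor through which inflammasomes bind caspase-1, had 3 counts over the Ecto libraries and averaged 9.83 CPM in VK2, while the inflammasome sensor NLRP3 was higher in Ecto at 1.99 and the sensor NLRP2 had 2 counts there and 66.0 CPM in VK2.

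Called genes of complement and of MHC class I presentation were mostly higher in Ecto. Of 17 complement genes 8 were higher and 1 was lower, with a median log2 fold change of 0.96. C3, the central component, averaged 84.2 ± 6.23 CPM in Ecto and 7.71 ± 0.278 CPM in VK2 (SD, n = 3 each). Of 21 genes of MHC class I presentation 7 were higher and none lower (median 0.68): HLA-C averaged 414 ± 7.36 CPM in Ecto and 136 ± 3.03 CPM in VK2 (SD, n = 3 each). Of 6 class II presentation genes tested 3 were higher and 1 lower, but the list summed to 4.09 CPM in Ecto and 26.3 CPM in VK2. HLA genes share much of their sequence, so the division of reads among them is uncertain. Of 38 interferon-stimulated genes 5 were higher and 1 was lower, with a median of 0.15, a share of higher calls near that of all genes. Those 5 were IFITM2, IFI27, XAF1, CMPK2 and RSAD2, at log2 fold changes of 4.78, 4.59, 4.50, 3.24 and 2.84. Of 19 histone genes 8 were higher and none lower, led by H4C8 at 3.83. The 7 class I genes and 7 of the 8 histone genes lie on chromosome 6, where the window of 25 Mb to 30 Mb had a median log2 fold change of 0.96 over 56 genes and the window of 30 Mb to 35 Mb one of 0.05 over 118. What part the position had in these lists was not tested.

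HOX genes, which pattern the body axis, and other regional transcription factors held several genes with near on and off values. Of 41 HOX genes and HOX antisense RNAs tested, 13 were higher in Ecto and 4 lower. Among the posterior HOXD genes HOXD10 had 21.1, 19.5 and 21.6 CPM in Ecto, against 0.214, 0.391 and 0.474 CPM in VK2, and HOXD9, HOXD11 and HOXD13 were higher as well, HOXD13 by at least 11.9-fold since VK2 had no count. HOXC10 ran the other way, at 0.0825 CPM in Ecto and 4.14 CPM in VK2. Of 89 regional and epithelial transcription factors 18 were higher in Ecto and 29 lower (median -0.28, and -0.23 with bounds). FOXL2, best known from the ovary, averaged 15.2 ± 0.794 CPM in Ecto and 0.114 ± 0.0365 CPM in VK2 (SD, n = 3 each), and Endo had 14.2 CPM. IRX4 had 3 counts over the Ecto libraries, against 27.7, 24.3 and 23.7 CPM in VK2, and IRX1 had none in Ecto, at least 444-fold lower than the 12 CPM of VK2. FOXE1 and FOXA2, forkhead factors of foregut and endoderm, averaged 0.0284 and 0.0532 CPM in Ecto, against 33.5 and 21.8 CPM in VK2. Endo had IRX4, FOXE1 and FOXA2 at 46.7, 38.4 and 24.5 CPM, and no count of IRX1.

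Some genes were counted in 1 line and hardly or not at all in the other. With at most 3 counts in every library of one line and at least 5 CPM on average in the other, 18 genes were on in Ecto only and 42 in VK2 only. All 18 were called with the same sign in each of the 7 other conditions, and so were 41 of the 42, the exception being the pseudogene GTF2IP1. Over all untreated calls that share was 48%, but these genes were picked for their extreme untreated values in the same lines. SPESP1, a sperm equatorial segment protein, had 8.05, 8.81 and 9.62 CPM in Ecto and no count in VK2, and was at least 265-fold higher. ZNF502, a zinc finger gene, was at least 254-fold higher, and DDX43, an RNA helicase of the germ line, at least 211-fold. In the other direction APBA2, a neuronal adaptor, had no count in Ecto and 30.8, 32.2 and 29.8 CPM in VK2, and was at least 1141-fold lower. GRB10, an imprinted gene that restrains insulin signalling, had no count in Ecto, 18.8 ± 0.872 CPM in VK2 and 81.2 ± 3.51 CPM in Endo (SD, n = 3 each), and was at least 695-fold lower. Of the other imprinted genes IGF2 and H19, neighbours on chromosome 11, averaged 0.167 and 0.993 CPM in Ecto, against 58.4 and 31.9 CPM in VK2. Over the list, 3 of 21 imprinted genes were higher in Ecto and 7 lower. In all, Endo had at least 1 CPM of 9 of the 18 genes and 23 of the 42.

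The promoters of 3 such genes and of 2 envelope genes are shown to set their base composition side by side. The 250 bases before the start in RefSeq (GRCh38.p14) were read on the gene's strand, and the motif CG, the base pair step at which mammalian DNA is methylated, was counted. The motif is its own reverse complement, so both strands give the same count. Over 35116 promoters the median was 11 CG, 93.9% held at least 1 CG, and 32.4% held at least 20. IRX4 (chr5:1886946-1887195, minus strand) and GRB10 (chr7:50793454-50793703, minus strand) are on in VK2, and PNMA8A (chr19:46471564-46471813, minus strand) is on in Ecto. IVL (chr1:152908296-152908545, plus strand) and SPRR1B (chr1:153030953-153031202, plus strand) stand for the envelope genes. The files' annotation (GENCODE) begins IRX4 farther upstream, so its stretch lies inside the gene as counted. CG is in capitals.
IRX4: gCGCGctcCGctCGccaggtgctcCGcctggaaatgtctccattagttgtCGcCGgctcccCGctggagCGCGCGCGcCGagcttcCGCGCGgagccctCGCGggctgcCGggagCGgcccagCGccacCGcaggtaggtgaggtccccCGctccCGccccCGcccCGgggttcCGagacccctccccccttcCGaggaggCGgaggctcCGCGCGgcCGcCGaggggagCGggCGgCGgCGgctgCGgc
GRB10: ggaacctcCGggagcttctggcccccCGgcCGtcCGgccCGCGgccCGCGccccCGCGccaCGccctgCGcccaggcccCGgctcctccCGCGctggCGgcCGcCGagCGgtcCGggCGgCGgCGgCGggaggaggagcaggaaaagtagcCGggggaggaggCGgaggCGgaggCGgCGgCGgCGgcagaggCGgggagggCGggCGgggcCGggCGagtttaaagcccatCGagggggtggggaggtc
PNMA8A: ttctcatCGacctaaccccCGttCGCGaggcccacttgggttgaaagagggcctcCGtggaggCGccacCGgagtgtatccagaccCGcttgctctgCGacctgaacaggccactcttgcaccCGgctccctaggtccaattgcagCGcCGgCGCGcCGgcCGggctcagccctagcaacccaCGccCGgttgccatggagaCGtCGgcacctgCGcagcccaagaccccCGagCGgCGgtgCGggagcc
IVL: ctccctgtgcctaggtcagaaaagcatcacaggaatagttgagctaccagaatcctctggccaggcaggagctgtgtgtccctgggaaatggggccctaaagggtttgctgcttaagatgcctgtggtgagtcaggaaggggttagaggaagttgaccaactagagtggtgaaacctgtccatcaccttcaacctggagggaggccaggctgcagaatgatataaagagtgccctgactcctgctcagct
SPRR1B: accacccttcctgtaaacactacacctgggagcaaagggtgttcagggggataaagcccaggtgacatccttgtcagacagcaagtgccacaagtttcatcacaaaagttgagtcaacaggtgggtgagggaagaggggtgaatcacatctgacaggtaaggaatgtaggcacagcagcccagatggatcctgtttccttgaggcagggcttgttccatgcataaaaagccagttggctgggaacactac

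IRX4 held 39 CG, GRB10 held 37 and PNMA8A held 25, whereas IVL and SPRR1B held 0. Of the 37 protein-coding genes on in VK2 only, 30 were matched, with a median of 17.5 CG, a range of 0 to 39 and 13 with at least 20, so IRX4 was the highest of them. The 13 on in Ecto only were all matched, with a median of 16, a range of 2 to 34 and 5 with at least 20. Of the 34 called envelope and kallikrein genes 27 were matched, with a median of 2, a range of 0 to 15 and none with at least 20. These are counts of letters. DNA methylation was not measured here.

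Called genes were not spread evenly over the genome. The 12836 protein-coding genes of at least 1 CPM in either line were placed in 437 windows of 5 Mb that held at least 10 of them. A total of 66 windows had a median beyond 0.5 or -0.5 on the log2 scale, and 9 runs of 3 or more successive such windows of like sign, passing over stretches with under 10 genes, held 13.8% of the genes and 30.5% of the called genes. These runs were chosen by the untreated values themselves, so a high share of called genes in them follows from the choice. That share and the following untreated medians are a description. Genes were higher in Ecto on chromosome 3 between 5 Mb and 70 Mb, with a median log2 fold change of 0.95 over 331 genes, 316 of them above 0. They were lower on chromosome 13 between 30 Mb and 115 Mb (-1.0, 162 genes), chromosome 19 between 30 Mb and 60 Mb (-0.92, 519 genes), chromosome 20 up to 25 Mb (-1.04, 108 genes) and chromosome 22 between 15 Mb and 35 Mb (-1.05, 137 genes). In the 7 other conditions, which used other libraries of the same lines, the medians of these 5 runs kept their sign and ranged over 0.81 to 0.96, -1.01 to -0.88, -0.91 to -0.77, -1.17 to -1.03 and -1.22 to -1.02.

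Endo was read over the same runs, with the caveat that each ratio reuses the Ecto or VK2 libraries. On chromosome 3 the median was 0.97 for Ecto over Endo and 0.04 for VK2 over Endo. On chromosomes 19, 20 and 22 it was -0.79, -1.0 and -0.93 for Ecto over Endo, against 0.15, 0.12 and 0.14 for VK2 over Endo. Chromosome 13 held unlike parts: in the windows between 35 Mb and 55 Mb the medians were -0.21 to -0.02 for Ecto over Endo and 0.93 to 1.15 for VK2 over Endo, and in those between 75 Mb and 115 Mb they were -1.33 to -0.56 for Ecto over Endo and -0.03 to 0.12 for VK2 over Endo. The first 5 Mb of chromosome 19 went the other way from its run between 30 Mb and 60 Mb, with a median of 1.05 for Ecto over VK2, 0.11 for Ecto over Endo and -0.93 for VK2 over Endo, and the next 5 Mb did likewise, at 1.01, 0.17 and -0.78. DNA copy number was not measured, and its part in any result was not tested.

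**Figure D3:**
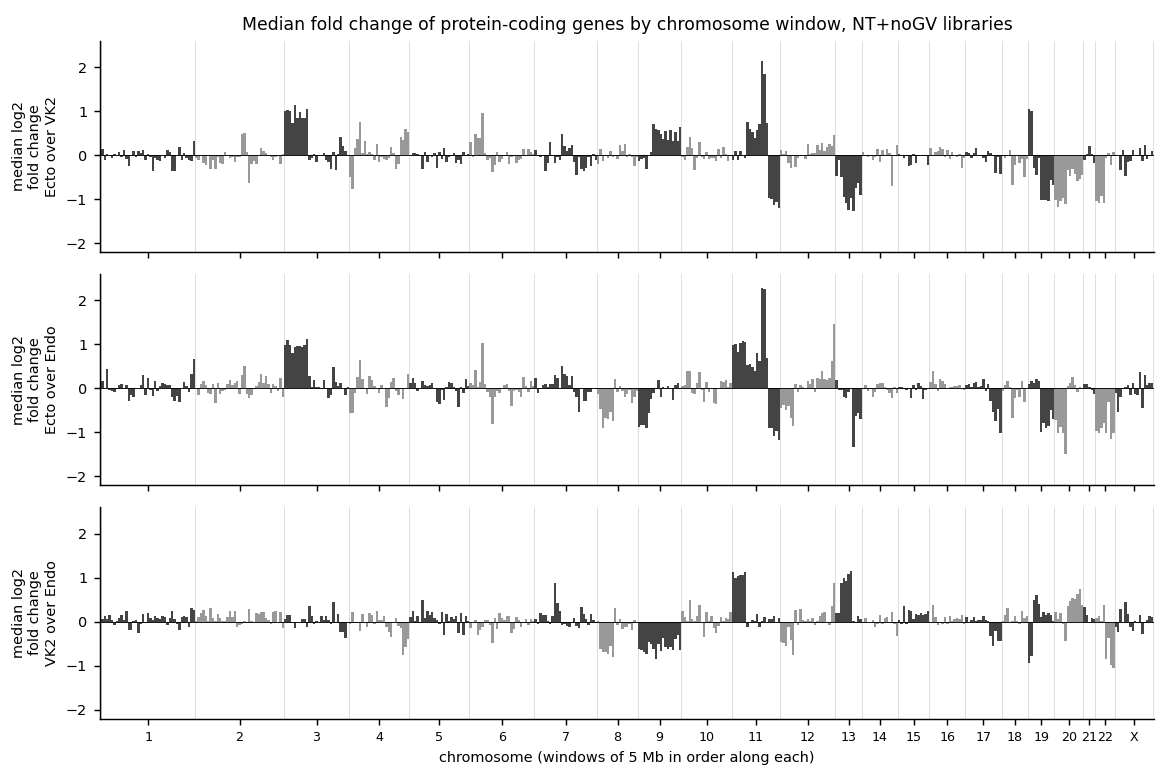
Median log2 fold change of protein-coding genes in each of 437 windows of 5 Mb, in order along each chromosome, for Ecto over VK2 (top), Ecto over Endo (middle) and VK2 over Endo (bottom), NT+noGV libraries. Runs of bars near 1 or -1 cover parts of chromosomes 3, 11, 13, 19, 20 and 22, and the highest window, on chromosome 11, has a median of 2.13.

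The window with the largest median was on chromosome 11. Between SLC36A4 and SLC35F2 (GRCh38, chr11:93144174-107928293, 14.8 Mb, limits and the genes that mark them chosen after the values were seen), 45 of 49 protein-coding genes were called higher in Ecto and 3 lower, with a median log2 fold change of 2.10. In the 7 other conditions the median of the block was 2.01 to 2.19. Before it, 28 genes had a median of 0.85, and after it, from CUL5 to GLB1L2, 138 genes had a median of -1.03, with 74 lower and 7 higher. Relative to Endo the block stood at 2.27 in Ecto and 0.05 in VK2.

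The block holds genes of growth control, cell death and matrix breakdown. YAP1, the coactivator of the Hippo pathway, had 1124, 1079 and 1043 CPM in Ecto, against 331, 301 and 308 CPM in VK2, and Endo averaged 293 CPM. The lines did not overlap, and the log2 fold change was 1.79 ± 0.07 (SE, edgeR adjusted p = 5.66e-31). BIRC2 and BIRC3, inhibitors of apoptosis, were higher by 2.50 and 1.58. CASP4, the caspase that senses bacterial lipopolysaccharide inside cells, averaged 626 ± 18.8 CPM in Ecto and 75.8 ± 1.77 CPM in VK2, and CASP1, the caspase of inflammasomes, averaged 168 ± 4.15 CPM in Ecto and 23 ± 1.11 CPM in VK2 (SD, n = 3 each). These were all 4 higher genes of the apoptosis and gasdermin list, in which 5 of 30 were lower. The share called in that list was 30%, beside 25.5% of all tested genes. MMP7, matrilysin, was higher at 5.32, whereas its neighbours MMP3 and MMP10 were lower at -1.41 and -1.24, and with HEPHL1, named for this count after its values were seen, they made up the 3 lower genes. CADM1, an adhesion molecule beyond the block, had 1 count over the Ecto libraries and averaged 61.1 ± 1.99 CPM in VK2 (SD, n = 3).

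**Figure D4:**
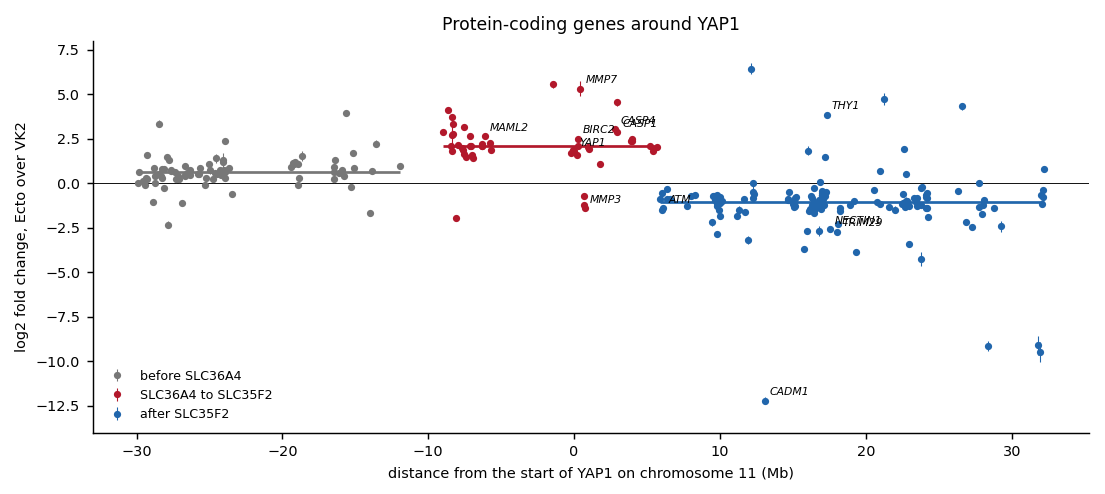
Log2 fold change, Ecto over VK2, of protein-coding genes on chromosome 11 by distance from the start of YAP1 in Mb, with bars for the SE and a horizontal line at the median of each stretch. Genes before the block (grey) lie mostly above 0, those in the block (red) lie around a median of 2.10, and those after it (blue) around -1.03, with CADM1, which had 1 count in Ecto, at a fitted -12.21.

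Growth, stress and polyamine genes were also listed. Among 25 p53 target genes none was higher and 1 was lower, with a median log2 fold change of 0.02. Of 30 genes of polyamine metabolism and transport, the pathway that the study later perturbs, 3 were higher and 3 lower (median 0.07). The share called was 20%, under the 25.5% of all tested genes. SMOX, which oxidises spermine, averaged 3.57 ± 0.197 CPM in Ecto and 14.9 ± 0.686 CPM in VK2 (SD, n = 3 each), and the antizyme gene OAZ1 was higher at 1.03. Of 49 cell cycle genes 7 were higher and 4 lower (median 0.36), a share called of 22.45%, also under that of all tested genes. Of 53 ligands and receptors of the EGF and FGF families 2 were higher and 18 lower, with a median of -0.59.

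The same contrast was then read in the 7 conditions in which both lines had a treatment. The share of genes called was 26.6% with PUT+noGV, 25.9% with SPD+noGV, 25.5% with SPM+noGV, 29.9% with NT+GV, 27.8% with PUT+GV, 30.5% with SPD+GV and 28% with SPM+GV, beside the 25.5% without treatment. Of the 5403 untreated calls 2591 (48%) were called with the same sign in all 7, and 158 in none. KRT14 stayed between -6.67 and -4.78, KLK5 between -8.82 and -6.29, CASP4 between 2.85 and 3.49 and YAP1 between 1.44 and 1.78. Others moved across the limit: TP63 was at -1.33, -1.49 and -1.23 with PUT+GV, SPD+GV and SPM+GV, against 0.09 untreated. It was at -0.82, -0.12, -0.61 and -0.95 with PUT+noGV, SPD+noGV, SPM+noGV and NT+GV. KRT8 was at 0.66 to 0.85 with PUT+GV, SPD+GV and SPM+GV, against 2.09 untreated. KRT18 was at 0.34 to 0.90 in the 4 conditions with GV and at 0.995 with PUT+noGV, against 1.42 untreated. Of the same 5403 calls, 79 were called with the opposite sign in at least 1 condition, and some of these are also among the 158. Most of the 79 averaged under 1 CPM in both untreated lines, and most were opposite in only 1 condition. KRT13 was at 1.36 with SPM+GV, against -3.27 untreated, and KRT4 was at 1.54 with SPM+GV, against a fitted -6.13 untreated that rests on 1 count in Ecto. CXCL8 was at 0.61 with PUT+noGV, -0.56 with SPM+noGV, 0.12 with PUT+GV and -0.14 with SPM+GV, against 1.65 untreated, and IL32 was at 3.15 to 3.67 in the 4 conditions with GV, against 7.30 untreated. Whether these fold changes differed between conditions was not tested.

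**Figure D5:**
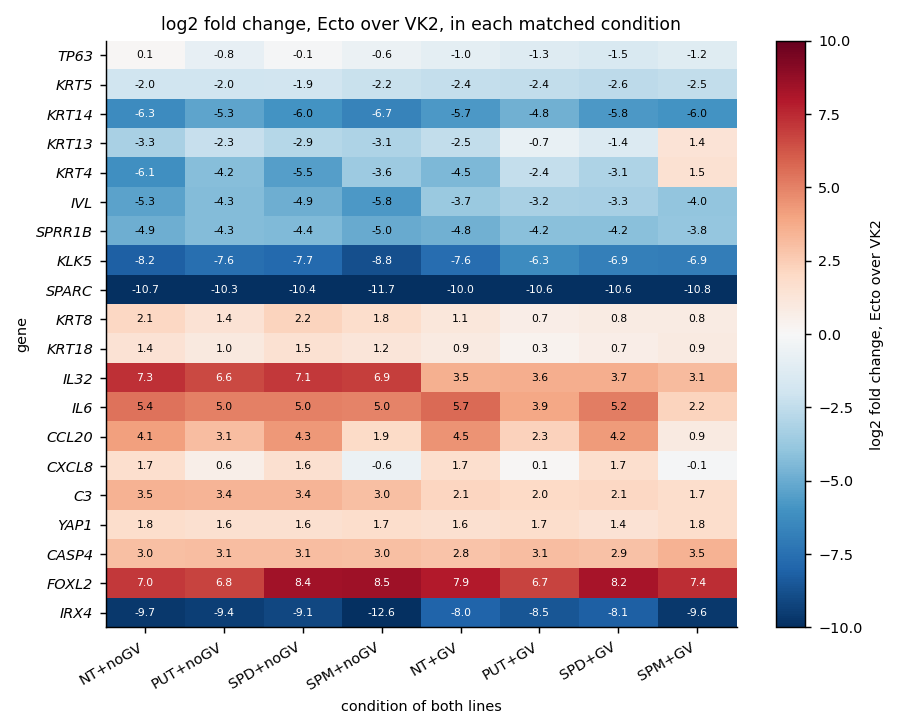
Log2 fold change, Ecto over VK2, of 20 genes (rows) in the untreated condition and the 7 other matched conditions (columns), red where higher in Ecto and blue where lower, with each value printed. SPARC, IRX4, KLK5 and KRT14 are blue and FOXL2, CASP4 and YAP1 red in every column, while KRT13 and KRT4 are red with SPM+GV alone.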

How the data were processed

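Total RNA of the cells was sequenced with the CORALL kit. Per the labels and methods, the authors quantified transcripts with Salmon against GENCODE release 44 (GRCh38) and summed them to genes. The deposited table holds these estimated counts (expected counts), unnormalized, for 72 libraries and 62266 genes. Its values were already whole, so no rounding was needed.

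The test was the quasi-likelihood test of edgeR 4.0.16 (R 4.3.3), with trimmed-mean (TMM) factors, the default expression filter, and a robust fit over all 72 libraries with 24 group terms, then the contrast Ecto NT+noGV over VK2 NT+noGV with Benjamini-Hochberg adjustment. A gene was called at an adjusted p under 0.05 and a log2 fold change beyond 1 or -1. Data were also simulated from these libraries, with 16688 genes, a spread set in advance and few changed genes, and fitted with 6 libraries. At an adjusted p under 0.05 and the right sign, 93 of 100 genes changed 1 log2 unit and 100 of 100 changed 2 units were found. A further 14 unchanged genes passed that adjusted p. The fold limit was not applied there, and the median estimate of the genes changed 1 unit was 0.983, under that limit. The simulation therefore does not give the error rate of the calls. CPM are TMM-scaled. The 6 libraries held 25939821 to 42767996 counts, and SDs and SEs cover the spread between libraries only. A floor of 3 counts over a group was 0.0271 CPM in Ecto and 0.0333 CPM in VK2.

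Samples were grouped by their labels. The libraries follow from their labels, but the choice of this comparison, its members, and the gene lists was made with earlier results of these data known. Named genes were members of those lists, the 20 largest changes in each direction among called protein-coding genes of at least 5 CPM, the 10 smallest adjusted p-values, the 10 largest CPM differences in each direction, and the 10 largest changes in each direction among called non-coding genes of at least 5 CPM. Alternatives were other normalizations, filters, thresholds and library sets, a replicate block, each replicate left out, and DESeq2 1.42.0. No replicate pair was identical (chi-square per degree of freedom 2.43 to 4.57). Some listed genes are not reported here.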

Additional observations from a re-analysis of the deposited data

Results flagged for a closer look

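In the untreated cells KRT4 and KRT13, the keratin pair of the upper layers, were lower in Ecto, but with SPM+GV every Ecto library was above every VK2 library. KRT4 had 3.46, 4.94 and 4.69 CPM in Ecto SPM+GV, against 1.20, 1.58 and 1.73 CPM in VK2 SPM+GV, a log2 fold change of 1.54 ± 0.28 (SE, edgeR adjusted p = 1.34e-06), beside a fitted -6.13 untreated, where Ecto had 1 count over its libraries. KRT13 had 4.56, 5.23 and 4.88 CPM in Ecto SPM+GV, against 1.73, 1.87 and 2.17 CPM in VK2 SPM+GV, a log2 fold change of 1.36 ± 0.19 (SE, edgeR adjusted p = 3.69e-09), beside -3.27 untreated. The genes were looked for among the named genes after their values were seen, and the difference between the conditions was not tested. Both were at or under 5.23 CPM in every SPM+GV library of these lines.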

How the results depend on the processing

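Untreated calls, 5403, kept their number within 1.5 times under relative log expression scaling (5397), without robust estimation (5412), without a filter (5813), with the 6 libraries alone (4256), with DESeq2 (5231) and with library totals alone (5530, an alternative chosen after seeing the data). They fell to 2487 at a log2 fold change of at least 2, to 3595 with glmTreat, and to 3187 with a filter of at least 1 CPM in 3 of the 6 libraries. The last tested 14461 genes in place of 21195. Leaving out each replicate gave 5228 to 5390 calls. With a replicate block there were 5406 calls, 5388 of them shared, but the deviations of same-numbered libraries correlated at only 0.0223 to 0.0628, so the numbers were not taken to pair them. Library totals alone moved the median of all genes to 0.17, beside 0.01, and the share of calls that were higher to 58.2%, beside 48.9%, and fold changes above are relative to the TMM scale. No untreated call changed sign under any of these settings. In the 7 other conditions, calls at a log2 fold change of at least 2 numbered 2410 (PUT+noGV), 2552 (SPD+noGV), 2512 (SPM+noGV), 2872 (NT+GV), 2278 (PUT+GV), 2830 (SPD+GV) and 2480 (SPM+GV). Among the 120 named genes, 26 were no longer called at that threshold and 5 under glmTreat, none reversed, HES1 was also not called without a filter (-0.94), with the 1 CPM filter (-0.99) or with library totals alone (-0.86), glmTreat dropped GTF2IP1, HES1, HES4, MMP10 and OAZ1, and GTF2IP1 was not called without Ecto replicate 1 or 3. Not all 120 could be checked in every setting: 114 were tested with the 6 libraries alone and 111 with the 1 CPM filter. Low counts limit genes with few reads: fold changes of genes near 0 in a line depend on the prior count.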
